A study of Mus musculus with 25 samples.

Results

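Doxycycline and sucrose given for 1 week in the drinking water were compared with no treatment in hepatocytes of wild-type C57BL/6 mice, called BL/6 here. The comparison takes the 4 BL/6 Dox libraries and the 4 BL/6 ctrl libraries, 8 of the 25 libraries of the series, and covers all 12970 genes with enough counts for a test, of 37117 in the table. Doxycycline is a tetracycline antibiotic. It binds the bacterial ribosome, is used to switch transgenes on or off through the tetracycline-controlled transactivator, and is also known to slow translation in mitochondria and to bind metal ions. Sucrose is split in the gut into glucose and fructose, and fructose reaches the liver first, where sugar-responsive transcription factors such as ChREBP and SREBP1c raise glycolytic and lipogenic enzymes.

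The BL/6 Dox mice drank doxycycline hyclate at 0.2 mg/ml in water with 2.5% sucrose, freely, for 1 week. BL/6 AAV-Cre mice (n = 3), which are the other treated C57BL/6 group, were sampled 24 hours after tail vein injection of an adeno-associated virus of serotype 8 that expresses Cre recombinase from the hepatocyte promoter TBG. BL/6 ctrl mice were untreated. All 3 groups carry no transgene and no floxed allele. No group drank sucrose without the drug, so the effects of the 2 cannot be told apart. ApoYap mice (ApoE-rtTA, TRE-hYAP), in which a reverse transactivator switches on human YAP, drank the same water in another group (ApoYap Dox, n = 3). BL/6 Dox mice drank it without that transgene. The other libraries of the series also include untreated ApoYap mice (ApoYap ctrl, n = 4) and untreated floxed Lats1/2 mice (Lats1/2 flox ctrl, n = 4). Lats1/2 knockout mice (Lats1/2 KO, n = 3) were sampled 1 week after virus. The labels give neither sex, age, time of day nor batch, and do not tie a replicate to an animal. The p-values thus measure only the spread between these samples.

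RNA 3′ ends were counted from 500000 sorted cells per sample, and levels are given as CPM, which relate a count to the total of its library, with totals scaled by the trimmed mean of M-values (TMM). Totals were 8107539 to 11820900 counts in the Dox libraries and 9522508 to 14317362 in the ctrl libraries. Hepatocyte markers were counted in every library, with Alb, the gene of serum albumin, at 40096 to 62761 CPM in Dox and 61248 to 67309 CPM in ctrl libraries. Tat, another of these 10 markers, was at 43.2 to 449 CPM in Dox and 321 to 403 CPM in ctrl libraries. Dox 2 stood apart on the first principal component of the 8 libraries, at −50.8 against −6.51 to 15.8 for the others, and Dox 1 stood apart on the second, at −35.9 against −9.04 to 16.6. Results are therefore also given without them where that changes a call.

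Few genes passed the test. At an adjusted p under 0.05 (edgeR quasi-likelihood test, Benjamini-Hochberg over 12970 genes), 3 genes were higher in Dox, which is 0.0231% of those tested, and 13 were lower, which is 0.1%. Klf13, Atm and Herc1 rose. Tubb2a, Tfrc, Arntl, Hsp90aa1, Slc25a25, Ypel2, Sik1, Dusp1, Dhrs9, Ubxn4, Sowahb, Atxn7l2 and the predicted gene Gm47283 fell. In all 16 the 4 Dox values and the 4 ctrl values did not overlap; over all genes, 3.33% had every Dox library above every ctrl library and 3.29% had every Dox library below. At an unadjusted p under 0.05, 729 genes were higher (5.62%) and 814 lower (6.28%), and the median log2 fold change of all genes was 0.0. DESeq2 called 52 higher and 67 lower, among them 15 of the 16, and limma voom with quality weights called 45 and 54, among them 13. Those that voom did not call were Gm47283 (adjusted p = 0.091), Sik1 (0.067) and Dhrs9 (0.053). When 1 of the 8 libraries was left out, 0 to 9 genes were higher and 4 to 23 lower, the fewest without Dox 4 and the most without Dox 1; Tubb2a, Tfrc, Arntl and Gm47283 were called in all 8 such fits.

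**Figure D1:**
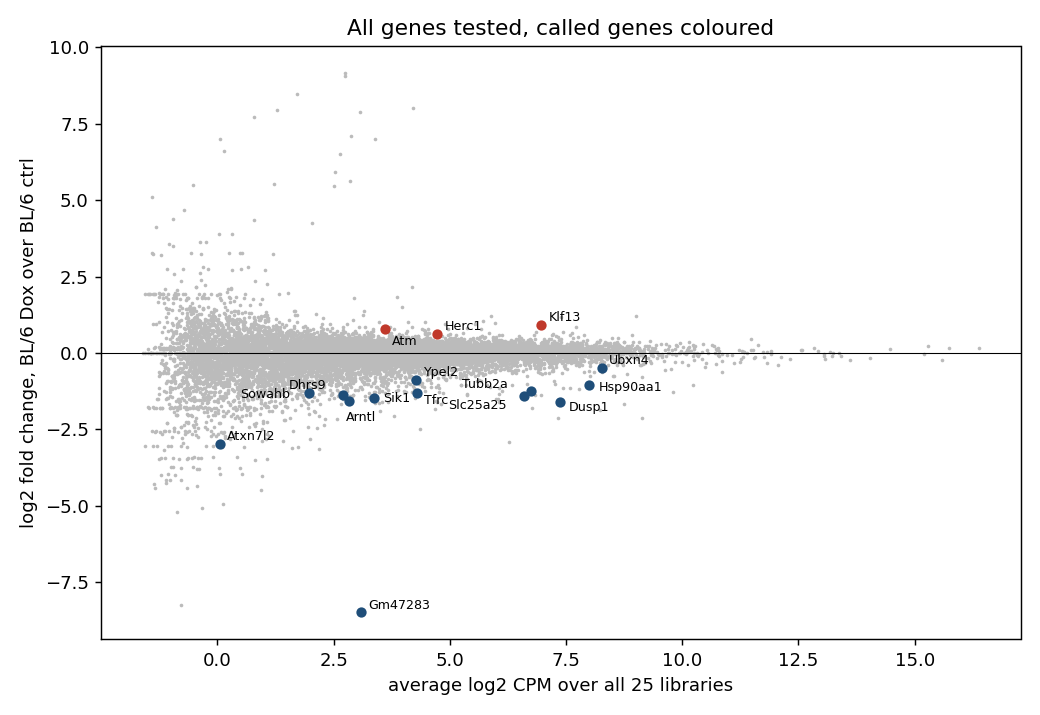
Log2 fold change of BL/6 Dox over BL/6 ctrl against the average log2 CPM of each of the 12970 genes tested (grey points), with the 3 genes called higher in red and the 13 called lower in blue. The called genes lie across the range of abundance, and the uncalled points above a log2 fold change of 4 are mostly genes highest in Dox 1 and Dox 3 (22 of 23).

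**Figure D2:**
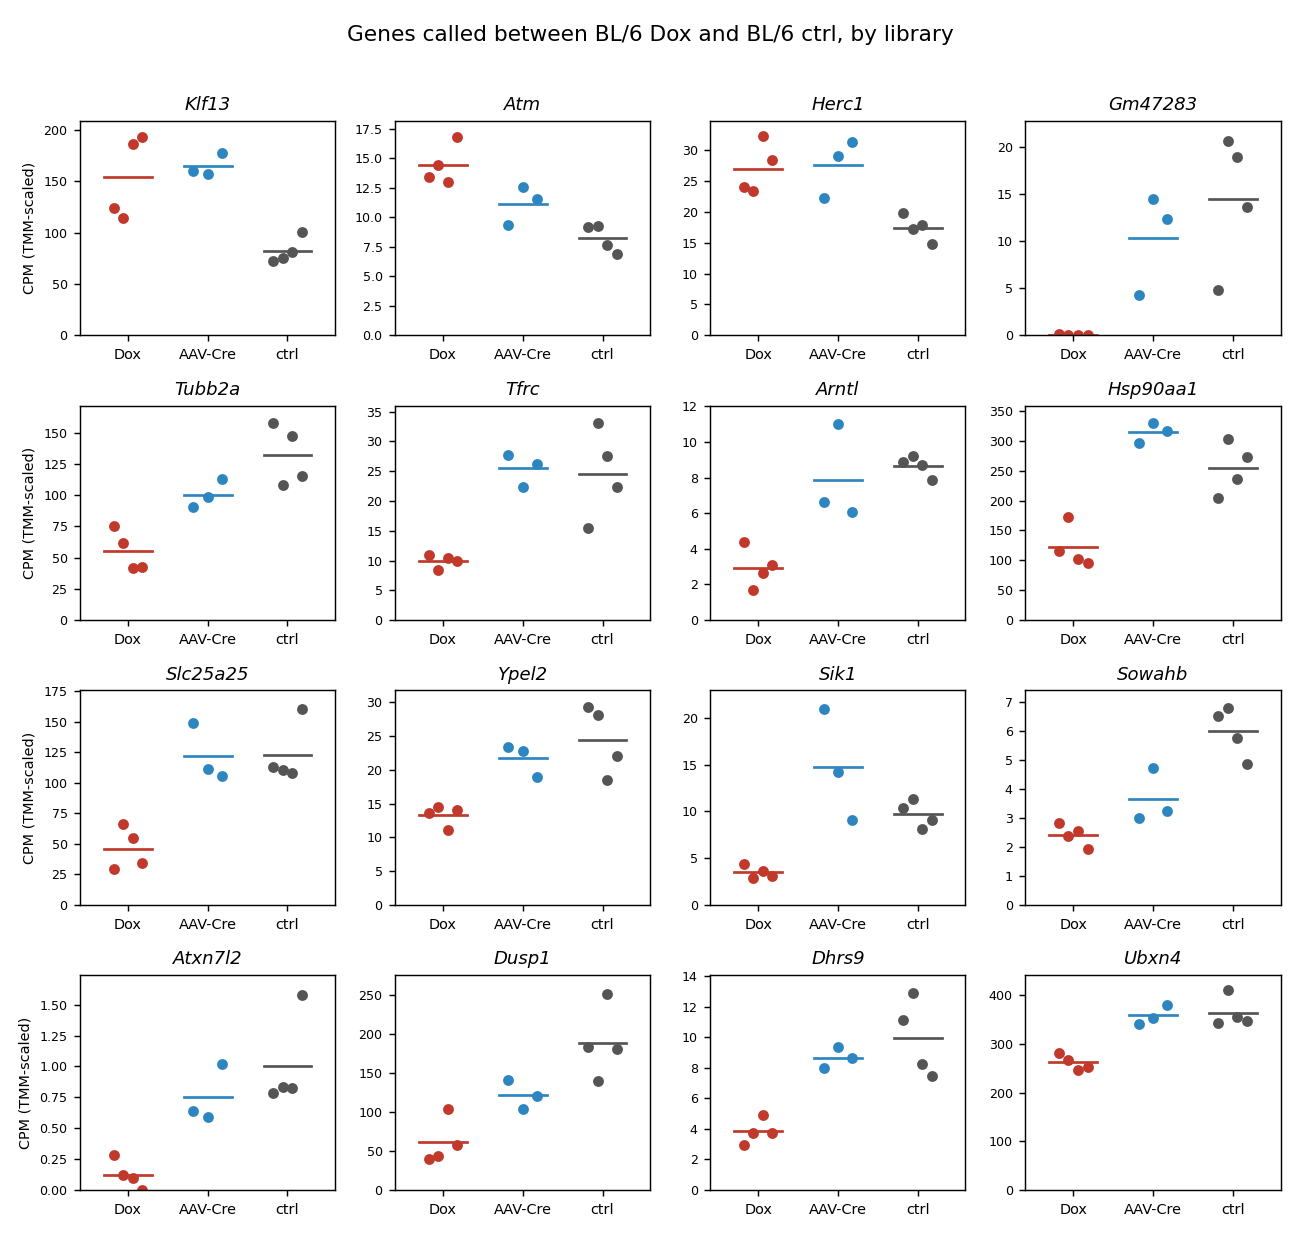
CPM of the 16 called genes in the 4 BL/6 Dox, 3 BL/6 AAV-Cre and 4 BL/6 ctrl libraries, each point a library and each line a group mean, on linear axes from 0. Dox and ctrl points do not overlap in any panel, and for Klf13, Herc1 and Atm the AAV-Cre points also lie above ctrl.

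Among genes of metal handling, Tfrc, which encodes the transferrin receptor that takes iron into cells, fell (chromosome 16, 32608920 to 32632794, GRCm38, annotation GENCODE M21). It was counted at 10.9, 8.46, 10.4 and 9.97 CPM in Dox libraries 1 to 4, against 15.4, 33.1, 27.6 and 22.3 CPM in ctrl libraries 1 to 4. All Dox values lay below all 21 other libraries of the series. Its log2 fold change was −1.30 (SE 0.19, adjusted p = 0.0019). Of the 28 measured genes for iron, copper, zinc and manganese, edgeR called Tfrc alone; at an unadjusted p under 0.05, 2 were higher (5.62% of all genes) and 5 lower (6.28%), and the median log2 fold change of the list was −0.05. Hamp, the gene of hepcidin, the hormone that limits iron export, had 831, 391, 678 and 908 CPM in Dox and 141, 354, 359 and 362 CPM in ctrl, without overlap, and was not called (log2 fold change 1.21, adjusted p = 0.27). The iron importer gene Slc11a2, at 13.6 to 24.5 CPM in Dox against 25.2 to 30.7 CPM in ctrl (−0.50, adjusted p = 0.2), and the exporter gene Slc40a1 (0.57, adjusted p = 0.38) were not called by edgeR either; voom called Slc11a2 lower (adjusted p = 0.031). The metallothionein gene Mt2 stood at 21.2, 8.81, 27.0 and 14.2 CPM in Dox against 52.3, 35.1, 38.6 and 184 CPM in ctrl; the groups did not overlap, but the ctrl libraries differed widely among themselves (−2.11, SE 0.79, adjusted p = 0.3).

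The circadian clock turns through a loop in which ARNTL (BMAL1) and CLOCK activate Per, Cry, Nr1d1 and the PAR bZIP factors Dbp and Tef through E-boxes, and the NR1D1 protein (REV-ERB alpha) represses Arntl through ROR elements, so that Arntl and Nr1d1 peak at opposite times of day. Arntl (chromosome 7, 113207465 to 113314126, GRCm38) fell to 4.37, 1.67, 2.64 and 3.11 CPM in Dox libraries 1 to 4, against 8.88, 9.19, 8.71 and 7.89 CPM in ctrl libraries 1 to 4, with no overlap (log2 fold change −1.57, SE 0.25, adjusted p = 0.0054). It was the only one of 30 measured clock and output genes called. At an unadjusted p under 0.05, 6 of the 30 were higher and 6 lower, against 5.62% and 6.28% of all genes.

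Nr1d1 and other genes of the opposite phase lay above ctrl, though none passed the adjusted test. Bracketed values are log2 fold changes here and in what follows. Nr1d1 had 47.1, 67.6, 54.2 and 67.2 CPM in Dox and 37.6, 22.9, 24.3 and 37.0 CPM in ctrl, which do not overlap (0.95, SE 0.32, adjusted p = 0.24). Tef was at 80.4, 104, 74.7 and 71.6 CPM in Dox against 30.3, 49.8, 39.8 and 41.0 CPM in ctrl (1.04, adjusted p = 0.17). Upp2, a uridine phosphorylase gene with a strong daily rhythm in mouse liver, had 373, 418, 407 and 382 CPM in Dox and 149.5, 141, 178 and 226 CPM in ctrl, the Dox values above all 21 other libraries (1.19, adjusted p = 0.13). Every Dox library was thus above every ctrl library in these genes, as it was in 6 of the 30 listed (20.0%) and in 3.33% of all genes. List members were named by a small p in this same comparison, which favours such a separation. The deubiquitinase gene Usp2, at 15.7, 13.1, 22.7 and 21.6 CPM in Dox against 2.51, 10.0, 3.30 and 5.18 CPM in ctrl, also did not overlap (1.83, adjusted p = 0.16). DESeq2 and voom called Tef, Upp2 and Usp2, and a fit of the 8 libraries alone called Tef and Upp2. Per1 overlapped, at 5.36, 8.46, 10.0 and 8.03 CPM in Dox and 1.49, 1.43, 0.471 and 9.01 CPM in ctrl, where ctrl 4 alone was high (1.38, adjusted p = 0.31); without ctrl 4 it was called, at 2.77 (adjusted p = 0.0023). Among partners of Arntl, Npas2 was at 1.55, 0.238, 0.849 and 0.777 CPM in Dox against 1.96, 0.716, 2.24 and 2.93 CPM in ctrl (−1.22, adjusted p = 0.33) and Clock at 18.6 to 26.8 CPM in Dox against 26.5 to 29.2 CPM in ctrl (−0.24, adjusted p = 0.44). The repressor gene Cry1 gave −0.66 (adjusted p = 0.34), Per2 0.00 and Per3 1.01. Dbp was scarcely counted and overlapped, at 0.423 to 1.23 CPM in Dox and 0.119 to 0.589 CPM in ctrl (1.14, adjusted p = 0.48). The labels do not give the hour of sampling, so the water and the time of day cannot be told apart for these genes.

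**Figure D3:**
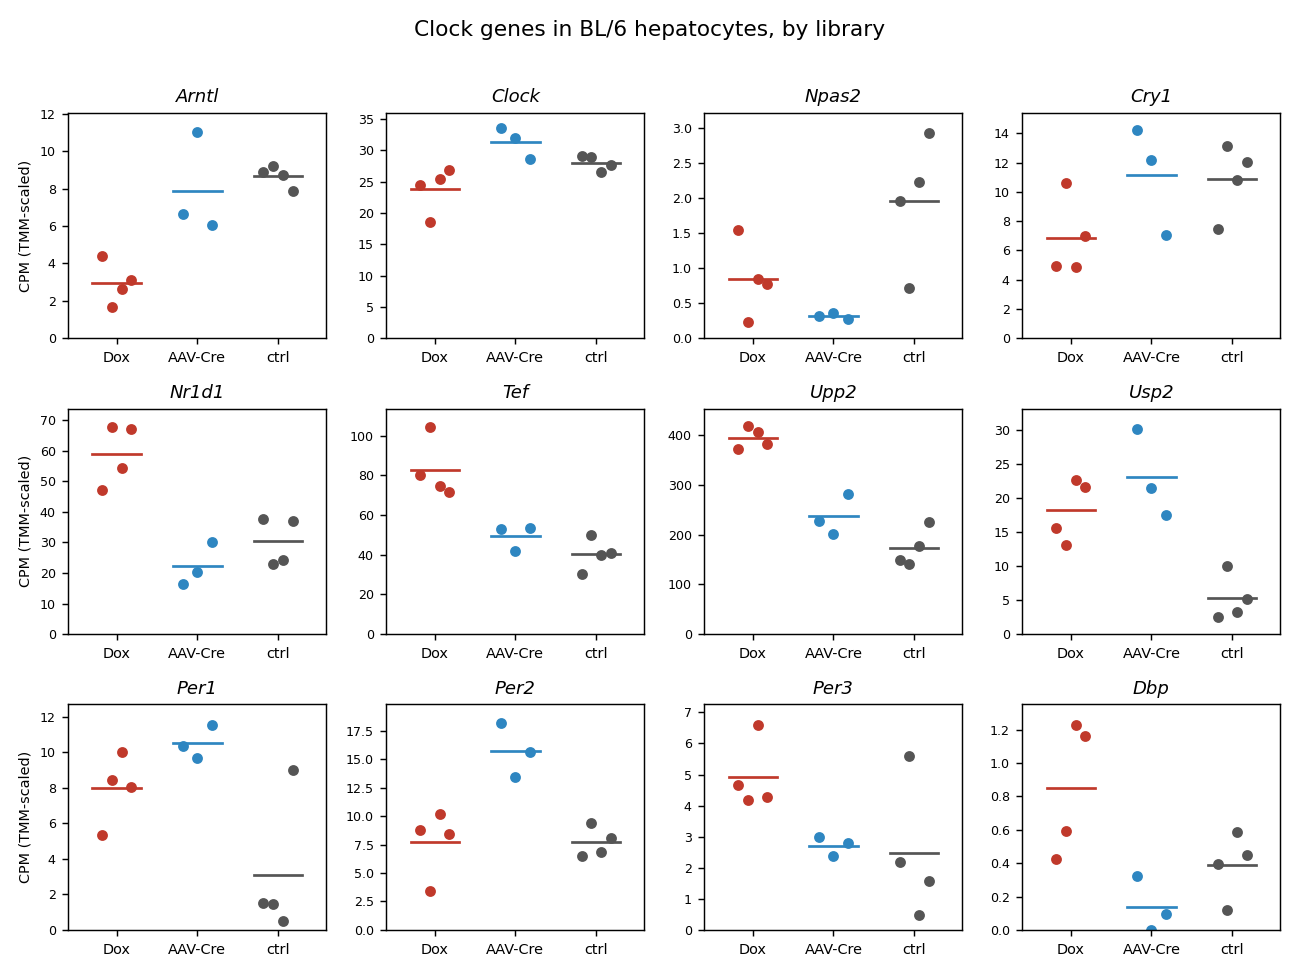
CPM of 12 clock genes in the 4 BL/6 Dox, 3 BL/6 AAV-Cre and 4 BL/6 ctrl libraries, each point a library and each line a group mean, on linear axes from 0. Arntl is low in all 4 Dox libraries, and Nr1d1, Tef and Upp2 are above all AAV-Cre and ctrl libraries there.

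The sequence before the Arntl start is shown because ROR elements are the route by which NR1D1 acts on this gene. Below, from RefSeq (GRCm38.p6), are the 250 bases before the start of Arntl (chr7:113207215-113207464, plus strand), 5′ to 3′, with matches to the ROR/REV-ERB core TNGGTCA in capitals.
Arntl: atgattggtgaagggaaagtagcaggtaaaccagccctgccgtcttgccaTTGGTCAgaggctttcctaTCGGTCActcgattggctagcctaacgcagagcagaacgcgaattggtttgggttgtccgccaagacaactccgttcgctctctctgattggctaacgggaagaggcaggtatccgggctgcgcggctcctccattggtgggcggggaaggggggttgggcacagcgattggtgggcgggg
The core was found on the printed strand at 200 and 181 bases before the start. This short core is not the full element, and the matches were not shown to be bound. On either strand it is present before 10.5% of the 27025 genes in the table, and before 5 of 25 clock genes found there. The E-box CACGTG, its own reverse complement, stood before 7 of these 25, among them Tef, Per1, Cry1 and Ciart, and before 6.86% of all genes. No match overlapped another in the printed windows.

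Most chaperone genes lay below ctrl in Dox, with 1 call. Cytosolic chaperones of the HSP90, HSP70 and HSP40 families keep proteins folded and are induced by heat shock factor HSF1; chaperones of the endoplasmic reticulum are induced by the unfolded protein response through ATF6 and XBP1. Hsp90aa1, the gene of the inducible cytosolic HSP90 (chromosome 12, 110690605 to 110702728, GRCm38), had 116, 172, 102 and 96.4 CPM in Dox and 205, 303, 236 and 273 CPM in ctrl (log2 fold change −1.06, SE 0.18, adjusted p = 0.011). The call was lost without Dox 3, Dox 4 or ctrl 2 (adjusted p up to 0.087). Of 19 measured cytosolic heat shock genes, 18 had a negative log2 fold change, 10 of them at an unadjusted p under 0.05 (6.28% of all genes), with a median of −0.41. Hsph1, an HSP110 gene, was at 24.8, 30.8, 24.7 and 17.1 CPM in Dox against 35.8, 81.3, 35.8 and 60.2 CPM in ctrl (−1.12, adjusted p = 0.12). Dnaja1, an HSP40 gene, had 114, 90.0, 104 and 88.7 CPM in Dox and 122, 168, 129 and 172 CPM in ctrl (−0.58, adjusted p = 0.12). In both the groups were apart. The inducible Hspa1b, whose reads may be shared with its copy Hspa1a, was at 3.95, 2.501, 3.49 and 4.27 CPM in Dox against 3.46, 8.24, 5.89 and 63.0 CPM in ctrl, and its fold change of −2.50 rests on ctrl 4. DESeq2 called Hspa1b lower (adjusted p = 0.03) and voom did not (adjusted p = 0.53). The constitutive Hspa8 gave −0.34 (adjusted p = 0.45).

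None of the 23 measured genes of the endoplasmic reticulum list was called by edgeR, and 20 had a negative log2 fold change, with a median of −0.30. At an unadjusted p under 0.05, 12 of the 23 were lower (52.2%, against 6.28% of all genes). DESeq2 called 7 genes of the endoplasmic reticulum list lower and voom 4. Of the cytosolic list they called 5 and 4. Over all 12970 genes tested, DESeq2 called 67 lower and voom 54. Sdf2l1, a partner of the HSP70 chaperone BiP, had 26.8, 29.3, 22.6 and 25.3 CPM in Dox and 39.9, 63.9, 52.0 and 41.0 CPM in ctrl (−0.92, SE 0.21, adjusted p = 0.079). Manf, which encodes a secreted stress factor, was at 118, 41.2, 104 and 97.5 CPM in Dox against 163, 249.1, 196 and 192 CPM in ctrl (−1.15, adjusted p = 0.11). Creld2, which encodes a disulfide isomerase, was counted at 13.3, 19.4, 12.6 and 12.3 CPM in Dox and 35.4, 51.6, 32.9 and 29.5 CPM in ctrl (−1.37, adjusted p = 0.12). For all 3 genes the groups were apart. Hspa5, the gene of BiP, was at 1171, 1509, 1115 and 1011 CPM in Dox against 1408, 2272, 1813 and 1946 CPM in ctrl, with Dox 2 above ctrl 1 (−0.63, adjusted p = 0.2).

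**Figure D4:**
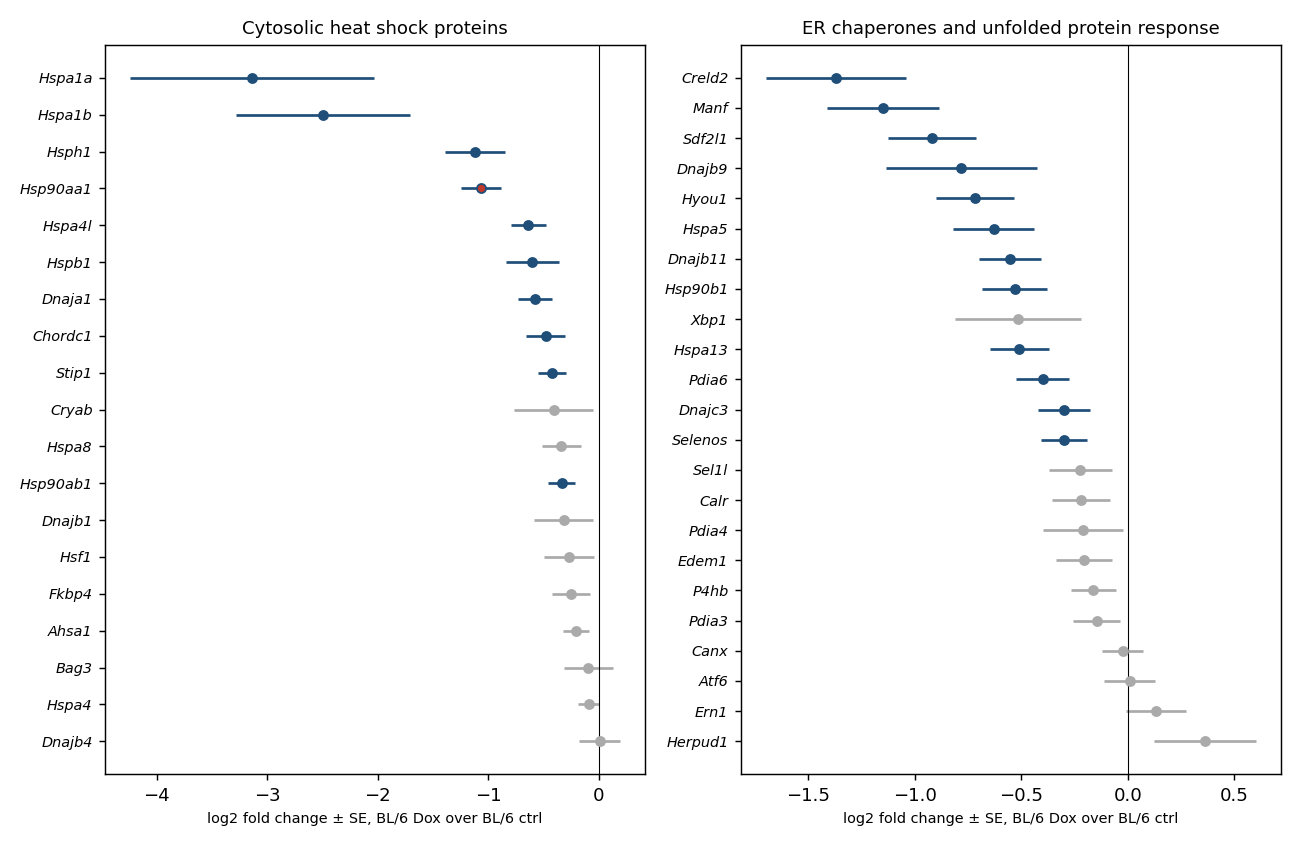
Log2 fold change of BL/6 Dox over BL/6 ctrl, with its standard error, for the 19 cytosolic heat shock genes and the 23 genes of endoplasmic reticulum chaperones and the unfolded protein response. Blue marks an unadjusted p under 0.05, grey a larger one, and the point with a red centre, Hsp90aa1, is the only one called; most points lie left of 0.

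The sequence before Creld2 is shown as an example of the element through which ATF6 acts. These are the 250 bases before its start (RefSeq, GRCm38.p6, chr15:88819396-88819645, plus strand), with the match to the ER stress element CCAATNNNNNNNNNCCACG in capitals, which lies on the opposite strand at 126 to 108 bases before the start.
Creld2: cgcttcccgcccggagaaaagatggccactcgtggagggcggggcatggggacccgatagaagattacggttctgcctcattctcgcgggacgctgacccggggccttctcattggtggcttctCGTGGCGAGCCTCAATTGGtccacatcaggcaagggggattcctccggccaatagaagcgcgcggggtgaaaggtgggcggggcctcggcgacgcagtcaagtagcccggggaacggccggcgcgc
The element occurs on either strand before 7 of 19 genes of the endoplasmic reticulum list found in the table, against 0.13% of all 27025 genes. The heat shock element GAANNTTCNNGAA was found in this window before none of 14 cytosolic heat shock genes and before 0.514% of all genes.

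Of the genes that fell, Dusp1, Sik1 and Slc25a25 act in signalling through MAP kinases, cAMP or calcium. Dusp1 encodes a phosphatase that switches off MAP kinases (chromosome 17, 26505590 to 26562128, GRCm38). Its level was 39.9, 43.9, 104 and 57.1 CPM in Dox and 183, 139.7, 251 and 180.5 CPM in ctrl (−1.62, SE 0.30, adjusted p = 0.023), a call lost without Dox 1, Dox 2, Dox 4, ctrl 1, ctrl 3 or ctrl 4 (adjusted p up to 0.12). Sik1, the gene of a salt-inducible kinase that restrains CREB coactivators (chromosome 17, 31844250 to 31855804), had 4.37, 2.86, 3.68 and 3.11 CPM in Dox and 10.4, 11.3, 8.12 and 9.13 CPM in ctrl, and the Dox values were below all 21 other libraries (−1.48, SE 0.28, adjusted p = 0.022; lost without Dox 2, Dox 3, Dox 4, ctrl 1 or ctrl 2, up to 0.12). Slc25a25, which encodes a calcium-regulated mitochondrial carrier of ATP-Mg and phosphate (chromosome 2, 32414487 to 32451445), was at 29.3, 66.3, 54.6 and 34.5 CPM in Dox against 113, 111, 108 and 161 CPM in ctrl (−1.41, SE 0.24, adjusted p = 0.015; lost without Dox 4, 0.099). Of 29 measured immediate early and dissociation genes, edgeR called Dusp1 alone and 25 had a negative fold change, with a median of −0.52. At an unadjusted p under 0.05, 5 were lower (17.2%, against 6.28% of all genes) and 0 higher. Klf10, a Kruppel-like factor gene of the same list, was also called lower by DESeq2 (adjusted p = 0.03) and by edgeR without Dox 3 (adjusted p = 0.0068). Nr4a1, the gene of an orphan nuclear receptor, had 2.82, 1.55, 8.96 and 4.66 CPM in Dox and 10.5, 8.95, 18.02 and 40.9 CPM in ctrl, with overlap (−2.07, adjusted p = 0.23). Such genes also respond to liver perfusion and cell isolation, and whether handling differed between groups was not tested. Tubb2a, a beta tubulin gene (chromosome 13, 34074274 to 34078007), fell to 75.0, 62.1, 41.7 and 42.7 CPM in Dox, against 158, 108, 147 and 115 CPM in ctrl (−1.26, SE 0.18, adjusted p = 0.0019).

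The sequences before Dusp1, Slc25a25 and Tubb2a are shown because these were the called genes that hold a full cAMP response element TGACGTCA, which is its own reverse complement. Each is the 250 bases before the start from RefSeq (GRCm38.p6), read on the minus strand of the chromosome, 5′ to 3′, with the element and, in Dusp1, an E-box in capitals. The window of Slc25a25 is the one of 3 listed starts that holds a match.
Dusp1 (chr17:26508473-26508722): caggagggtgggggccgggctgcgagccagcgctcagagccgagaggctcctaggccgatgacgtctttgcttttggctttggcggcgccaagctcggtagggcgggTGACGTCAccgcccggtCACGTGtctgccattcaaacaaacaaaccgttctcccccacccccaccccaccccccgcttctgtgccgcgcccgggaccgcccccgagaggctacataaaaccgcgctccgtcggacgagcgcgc
Slc25a25 (chr2:32424067-32424316): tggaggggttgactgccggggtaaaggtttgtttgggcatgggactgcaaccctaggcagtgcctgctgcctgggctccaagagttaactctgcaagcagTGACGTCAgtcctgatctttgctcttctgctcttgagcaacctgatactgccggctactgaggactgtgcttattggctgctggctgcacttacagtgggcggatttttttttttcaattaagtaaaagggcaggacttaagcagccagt
Tubb2a (chr13:34078009-34078258): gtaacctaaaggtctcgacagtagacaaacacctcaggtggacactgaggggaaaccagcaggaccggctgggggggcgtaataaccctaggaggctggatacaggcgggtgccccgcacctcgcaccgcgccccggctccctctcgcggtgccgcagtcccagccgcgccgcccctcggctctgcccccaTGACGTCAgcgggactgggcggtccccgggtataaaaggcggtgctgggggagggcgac
The element begins 143 bases before the start in Dusp1, 150 in Slc25a25 and 59 in Tubb2a. It was found in 3 of the 13 called genes with a sequence in the table and before 1.77% of all genes. Of the other motifs searched, the ROR/REV-ERB core stood before 3 of these 13, Arntl, Dhrs9 and Tfrc, and before 10.5% of all genes. The E-box stood before 1, Dusp1, and before 6.86% of all genes, and the remaining motifs before none of the 13. A match is a description of letters and not of binding.

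Klf13, the gene of a Kruppel-like transcription factor (chromosome 7, 63886351 to 63938915, GRCm38), rose to 124, 114, 186 and 193 CPM in Dox, against 71.8, 75.1, 80.9 and 100.3 CPM in ctrl (0.91, SE 0.17, adjusted p = 0.02). In the AAV-Cre libraries it was at 159.7, 156 and 177 CPM, within the range of Dox. Herc1, a large HECT ubiquitin ligase gene (chromosome 9, 66350450 to 66508775), had 24.0, 23.3, 32.3 and 28.5 CPM in Dox, 22.2, 29.1 and 31.4 CPM in AAV-Cre and 19.9, 17.3, 17.9 and 14.8 CPM in ctrl (0.63 against ctrl, SE 0.13, adjusted p = 0.049). Atm, the gene of the DNA damage kinase ATM (chromosome 9, 53439149 to 53536740), was at 13.4, 14.4, 13.02 and 16.8 CPM in Dox against 9.19, 9.31, 7.65 and 6.87 CPM in ctrl (0.80, SE 0.16, adjusted p = 0.03). For Atm the AAV-Cre libraries were at 9.40, 12.5 and 11.5 CPM. The call for Klf13 was lost without Dox 3, Dox 4, ctrl 1, ctrl 2 or ctrl 3 (adjusted p up to 0.12), that for Herc1 in 6 of 8 fits (up to 0.17) and that for Atm in 7 of 8 (up to 0.14).

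Of the remaining genes that fell, Ypel2 (chromosome 11, 86936425 to 86993707, GRCm38) was at 13.5, 14.5, 11.1 and 14.1 CPM in Dox against 29.3, 28.0, 18.5 and 21.97 CPM in ctrl (−0.88, SE 0.16, adjusted p = 0.02; lost without Dox 3, Dox 4, ctrl 1 or ctrl 2, up to 0.095). Dhrs9, a retinol dehydrogenase gene (chromosome 2, 69380445 to 69404533), had 2.96, 3.69, 4.91 and 3.76 CPM in Dox and 11.2, 12.9, 8.24 and 7.44 CPM in ctrl (−1.36, adjusted p = 0.045, a call kept in 1 of 8 fits without a library, up to 0.17). Ubxn4, whose product helps degrade misfolded proteins of the endoplasmic reticulum (chromosome 1, 128243964 to 128279378), had 282, 266, 246 and 253 CPM in Dox and 342, 412, 356 and 347 CPM in ctrl (−0.48, SE 0.10, adjusted p = 0.049, likewise kept in 1 of 8, up to 0.19). Sowahb, Atxn7l2 and Gm47283 fall outside the rule for naming genes and were named after their values were seen. Sowahb (chromosome 5, 93041123 to 93045022) was at 1.94 to 2.82 CPM in Dox against 4.84 to 6.80 CPM in ctrl (−1.30, adjusted p = 0.022), and the weakly expressed Atxn7l2 (chromosome 3, 108202222 to 108210934) at 0 to 0.282 CPM in Dox against 0.786 to 1.58 CPM in ctrl (−2.96, adjusted p = 0.023); each call was kept in 3 of 8 fits (up to 0.12 for both).

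Gm47283, a predicted gene near the end of chromosome Y (90784738 to 90816464, GRCm38), was almost uncounted in Dox. It had 1, 0, 0 and 0 counts in Dox libraries 1 to 4 and 61, 173, 161 and 121 counts in ctrl libraries 1 to 4. The scaled level was 453-fold lower in Dox (exact 95% interval 81.0 to 17944, counting error only). It was counted in every one of the 21 other libraries, at 4.27 to 14.4 CPM in AAV-Cre and 5.16 to 12.1 CPM in ApoYap Dox, whose mice drank the same water. In the untreated ApoYap ctrl libraries 1 to 4 it was lower, at 4.94, 2.01, 1.45 and 0.602 CPM. The voom test did not call Gm47283 (adjusted p = 0.091). No other gene on chromosome Y was called, and the values of genes elsewhere on it need not apply to Gm47283. Ddx3y, an RNA helicase gene, was at 111, 91.6, 95.03 and 102 CPM in Dox and 88.2, 92.4, 88.8 and 80.7 CPM in ctrl (0.19, adjusted p = 0.43), and Eif2s3y, Uty and Kdm5d gave log2 fold changes of −0.15, 0.22 and 0.26 (adjusted p from 0.63 to 0.74).

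Gene groups of mitochondria and of the stress response to halted mitochondrial translation showed no call. Of 13 mitochondrially encoded mRNAs 8 were measured, none was called and the median log2 fold change was −0.08. Their share of all counts was 14.7, 16.996, 14.3 and 13.6% in Dox libraries 1 to 4 and 15.3, 15.4, 14.6 and 14.5% in ctrl libraries 1 to 4, a difference of means of −0.0517 percentage points (exact two-sided permutation p = 0.943; 4 against 4 cannot give less than 0.0286). The complex IV subunit gene mt-Co1 was at 3192, 4076, 5044 and 4267 CPM in Dox and 4434, 4131, 4049 and 4272 CPM in ctrl (−0.03, adjusted p = 0.96). The medians were 0.02 for 39 mitochondrial ribosomal protein genes, 0.05 for 40 nuclear respiratory chain genes and −0.01 for 23 mitochondrial chaperones, proteases and expression factors. At an unadjusted p under 0.05 these 4 lists had 5 higher and 7 lower of 110 genes, against 5.62% and 6.28% of all genes, and DESeq2 and voom called none. In the ATF4 list of amino acid and mitochondrial stress the median over 31 genes was −0.11, with 5 lower (16.1%, against 6.28% of all genes) and 0 higher at an unadjusted p under 0.05 and none called by any of the 3 tools. Asns, the asparagine synthetase gene, had 4.51, 2.74, 2.36 and 2.72 CPM in Dox and 3.14, 5.85, 4.95 and 1.80 CPM in ctrl (−0.36, adjusted p = 0.86), Gdf15 gave −0.46 (adjusted p = 0.61), and Fgf21, a stress and sugar-responsive hormone gene, was at 0 to 0.377 CPM in Dox against 0.113 to 1.34 CPM in ctrl (adjusted p = 0.38). These tests read mRNA, and mitochondrial translation itself was not measured.

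Genes known to respond to dietary sugar were not called by edgeR either. ChREBP targets and sugar metabolism had a median of 0.01 over 30 genes. At an unadjusted p under 0.05, 3 were higher (10.0%) and 4 lower (13.3%), against 5.62% and 6.28% of all genes. Fatty acid and triglyceride synthesis had a median of −0.13 over 27, with 1 higher (3.7%) and 6 lower (22.2%) at the same threshold. In this synthesis list voom called 2 genes lower and DESeq2 none. Fasn, the fatty acid synthase gene, was at 202, 311, 296 and 174 CPM in Dox against 428, 356, 387 and 350.1 CPM in ctrl, each Dox value below each ctrl value, and was not called (−0.63, SE 0.21, adjusted p = 0.23). Scd1, the stearoyl-CoA desaturase gene, overlapped widely, at 2688, 2349, 4773 and 3071 CPM in Dox and 5626, 2423, 3075 and 2996 CPM in ctrl (−0.13, adjusted p = 0.91). Pklr, the liver pyruvate kinase gene and a ChREBP target, gave −0.18 (adjusted p = 0.86), Elovl6 −0.20 (0.72) and Srebf1 −0.53 (0.61). Txnip, a glucose-induced inhibitor of thioredoxin, was at 41.9, 12.7, 139 and 79.8 CPM in Dox and 189.5, 68.8, 222 and 236 CPM in ctrl (−1.38, adjusted p = 0.28). Of the gluconeogenic genes, Pck1 gave 0.10 (adjusted p = 0.92) and G6pc −0.56 (0.57). The value nearest to the threshold in oxidation was Cpt1a, the gene of the enzyme that admits fatty acids into mitochondria, at 162, 193, 182 and 251 CPM in Dox against 133, 127, 114 and 142 CPM in ctrl, with no overlap (0.61, SE 0.13, adjusted p = 0.066); DESeq2 and voom called it, as did the fit without Dox 1.

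Drug metabolism, bile acids and inflammation gave no call among 35 CAR and PXR targets, 11 AHR targets, 18 bile acid synthesis genes, 23 bile acid transporters and FXR targets, 24 cholesterol genes, 30 acute phase genes and 38 interferon-stimulated genes, by edgeR, DESeq2 or voom. At an unadjusted p under 0.05 these 7 lists together had 7 higher and 10 lower of 178 genes, against 5.62% and 6.28% of all genes. Bile acid transporters and FXR targets held 4 of the higher and 4 of the lower genes, 17.4% of that list each. Every Dox library was above every ctrl library in 21.7% of that list and below in 8.7%, against 3.33% and 3.29% of all genes. Cyp3a11, a PXR target P450, was at 2734, 786, 2899 and 2328 CPM in Dox and 2664, 2705, 2355 and 2419 CPM in ctrl, with Dox 2 apart from the other 7 (−0.21, adjusted p = 0.89). Cyp2b10, the CAR target, was scarcely counted, at 0.259 to 3.30 CPM in Dox and 0.338 to 1.07 CPM in ctrl, and Cyp1a2, the AHR target, gave −0.04 (adjusted p = 0.98). Cyp7a1, the rate-limiting enzyme gene of bile acid synthesis, had 135, 51.1, 92.1 and 110.5 CPM in Dox and 25.8, 41.1, 55.0 and 46.1 CPM in ctrl, with Dox 2 within the ctrl range (1.21, adjusted p = 0.49). Saa1, an acute phase gene, was at 71.1, 59.8, 42.7 and 50.3 CPM in Dox against 159, 591, 125 and 93.1 CPM in ctrl, without overlap but with ctrl 2 far above the rest (−2.11, SE 0.94, adjusted p = 0.38). The median of the acute phase list was −0.28 and that of the interferon list −0.09. The YAP target genes Ccn1 (−0.04, adjusted p = 0.97), Ccn2 (−0.83, 0.63) and Ankrd1 (−0.53, 0.85), and Yap1 itself (−0.05, 0.88), were not called, nor was any of 26 YAP and TAZ targets by edgeR, DESeq2 or voom. Of these 26, 23 had a negative log2 fold change, with a median of −0.46. At an unadjusted p under 0.05, 0 were higher and 5 lower (19.2%, against 6.28% of all genes).

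Markers of cells other than hepatocytes were summed per library in CPM before TMM scaling. The sum over 21 stellate cell and fibroblast markers was 30.5, 109.6, 99.6 and 126 in Dox libraries 1 to 4 and 234, 142, 95.9 and 223 in ctrl libraries 1 to 4. For 22 sinusoidal endothelial markers the sums were 59.6, 225, 275 and 258 in Dox and 418, 243, 189 and 347 in ctrl, and for 25 Kupffer cell and macrophage markers 74.7, 155, 334 and 181 in Dox and 341, 212, 154 and 235 in ctrl. Dox 1 was the lowest in all 3. The 11 cholangiocyte markers summed to 26.1, 41.5, 24.6 and 46.5 in Dox and 68.5, 65.3, 54.0 and 79.1 in ctrl, without overlap (exact two-sided permutation p = 0.0286, the smallest possible; 0.257 after adjustment over 9 lists). No other list fell below an exact p of 0.143. No marker of these lists was called in the edgeR test, though 8 of 20 measured stellate markers had an unadjusted p under 0.05, all on the lower side (6.28% of all genes), and DESeq2 and voom each called 1 cholangiocyte marker lower. In such bulk samples fewer cells of a type and less RNA per cell cannot be told apart. Among the defining markers at 0 in all 8 libraries were 6 of 13 for neutrophils and 6 of 20 for T, NK and B cells. The part of these sums in the results for named genes was not tested.

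Digestive enzyme genes of the exocrine pancreas were counted mainly in 2 of the Dox libraries. Chymotrypsinogen Ctrb1, named after its values were seen, was at 40.8, 0.238, 23.3 and 0.130 CPM in Dox libraries 1 to 4 and 0.157, 0, 0 and 0 CPM in ctrl libraries 1 to 4. Ctrb1, Prss2, Cpb1, Cpa1 and Pnlip summed to 117, 0.715, 63.5 and 0.259 CPM in Dox and 0.157, 0.119, 0.236 and 0.225 CPM in ctrl. Of 23 genes with a log2 fold change above 4, 22 were highest in Dox 1 and Dox 3, and edgeR and voom called none, with 1 and 0 at an unadjusted p under 0.05 (edgeR adjusted p from 0.42). DESeq2 called 3 of them higher, Cela3b, Clps and Ctrb1. AAV-Cre 2, at 300.4 CPM, and Lats1/2 flox ctrl 4, at 523 CPM, exceeded every Dox library in this sum.

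Single libraries of the Dox group stood apart from its other 3. In Dox 2, 38 genes of at least 20 CPM in the other 3 Dox libraries were at least 4-fold below the lowest of them, against 5 in Dox 1, 0 in Dox 3 and 4 and 0 in each ctrl library. Ftl1, the ferritin light chain gene, was at 210.1, 7.62, 124 and 119 CPM in Dox and 196, 191, 184 and 174 CPM in ctrl. Pfn1, the profilin gene, had 24.7, 0.476, 21.9 and 27.1 CPM in Dox and 25.5, 21.4, 23.0 and 16.1 CPM in ctrl, and Sdhd, a subunit gene of complex II, 52.0, 2.501, 46.8 and 50.5 CPM in Dox and 49.3, 43.3, 44.3 and 40.0 CPM in ctrl. Tat, the tyrosine aminotransferase gene, was at 309.6, 43.2, 337 and 449 CPM in Dox and 364, 397, 321 and 403 CPM in ctrl. In each of these Dox 2 was far below the other 7 libraries; for Ftl1, Dox 3 and Dox 4 also lay below every ctrl library. In Dox 1 the 5 genes were Clec4g, Csf1r, Dcn, Ehd3 and Kdr, of which 4 are in the marker lists of other cell types. In Dox 3 a few genes were high. Cish, a STAT5-induced inhibitor of cytokine signalling, had 8.04, 2.26, 50.0 and 10.1 CPM in Dox and 10.5, 0.955, 30.1 and 17.9 CPM in ctrl. Socs2, another such inhibitor, was at 17.5, 9.77, 98.2 and 13.3 CPM in Dox and 28.8, 13.6, 33.4 and 31.7 CPM in ctrl, and the transcription factor gene Onecut1 at 14.1, 2.14, 67.7 and 6.99 CPM in Dox and 4.72, 5.37, 29.6 and 6.31 CPM in ctrl. Library 3 was the highest of its group for these genes in both groups. The whole list of growth hormone axis and STAT5 targets, to which these genes belong, summed to 13061, 16616, 9922 and 11785 CPM in Dox and 12522, 15692, 13467 and 13129 CPM in ctrl, with Dox 3 the lowest of all. These genes were picked after their values were seen, except as members of lists. Without Dox 1 and Dox 2 together, 26 genes were higher and 40 lower, among them 13 of the 16.

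**Figure D5:**
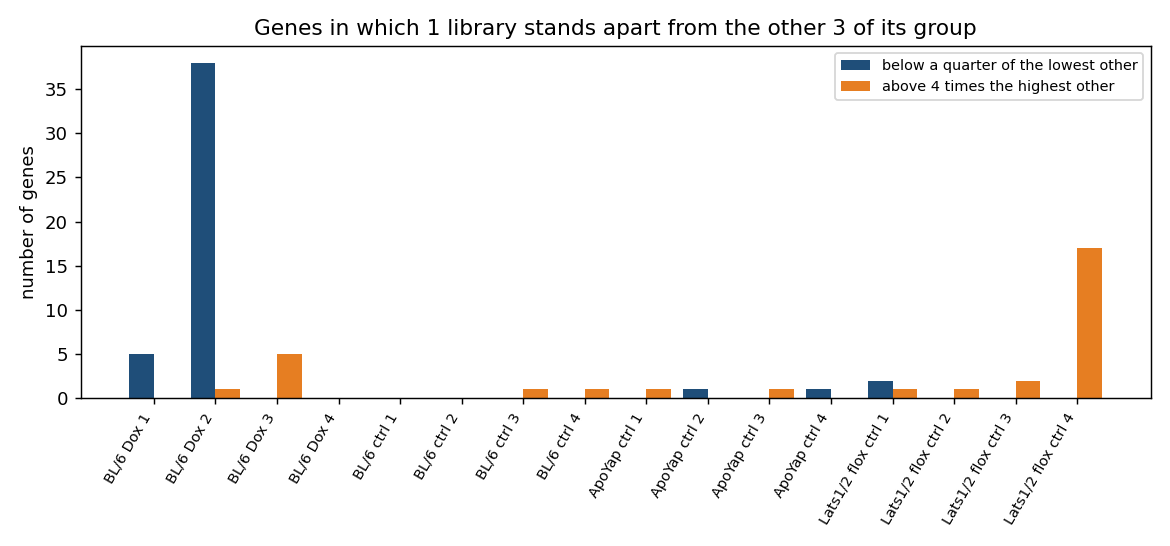
Number of genes in which a library differs 4-fold or more from the other 3 libraries of its group, for the groups of 4 libraries, with genes 4-fold or more below the lowest other in blue and 4-fold or more above the highest other in orange. Dox 2 has 38 low genes, the most of the 16 libraries, and Lats1/2 flox ctrl 4 has 17 high genes, the most in that direction.

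Against the other treated C57BL/6 group, 80 genes were higher in Dox than in AAV-Cre (0.617%) and 161 lower (1.24%); both comparisons use the same 4 Dox libraries. Leaving out 1 library gave 9 to 146 higher and 45 to 169 lower, the fewest without AAV-Cre 2. Arntl averaged 2.95 ± 1.12 CPM (SD, n = 4) in Dox and 7.89 ± 2.71 CPM (SD, n = 3) in AAV-Cre, without overlap (−1.43, SE 0.27, adjusted p = 0.0075), and Nr1d1 at 47.1 to 67.6 CPM in Dox and 16.3, 20.2 and 30.0 CPM in AAV-Cre (1.41, adjusted p = 0.047). Of the 30 clock genes 1 was higher than in AAV-Cre and 4 lower. Others named above were not called: Tef gave 0.74 (adjusted p = 0.24), Upp2 0.74 (0.28), Usp2 −0.33 (0.78) and Per1 −0.40 (0.75), and Npas2 gave 1.38 (0.33), opposite in sign to its value against ctrl. Usp2, at 30.2, 21.5 and 17.6 CPM in AAV-Cre, was within or above the range of Dox. Tfrc had 27.8, 22.4 and 26.2 CPM in AAV-Cre (−1.36, adjusted p = 0.00085). Of the 19 cytosolic heat shock genes 12 were lower in Dox than in AAV-Cre, and of the 23 endoplasmic reticulum genes 11, with none higher; the list medians were −0.94 and −0.55, against −0.02 over all genes. AAV-Cre itself lay above ctrl in these lists, by medians of 0.45 and 0.21. Hsph1 had 24.8, 30.8, 24.7 and 17.1 CPM in Dox and 88.6, 102 and 86.4 CPM in AAV-Cre (−1.92, adjusted p = 0.0015), and Creld2 13.3, 19.4, 12.6 and 12.3 CPM in Dox and 73.5, 46.0 and 37.2 CPM in AAV-Cre (−1.86, adjusted p = 0.0088). Acute phase genes were lower in 6 of 30 and p53 targets in 7 of 22, and the medians of AAV-Cre over ctrl were 0.59 and 0.90. Lcn2, an acute phase gene, was at 1.91 to 4.27 CPM in Dox and 7.15, 231 and 59.3 CPM in AAV-Cre (−4.94, adjusted p = 0.038), and the p53 target Cdkn1a at 5.22 to 10.8 CPM in Dox and 130.2, 189 and 278 CPM in AAV-Cre (−4.66, adjusted p = 0.00019), beside 13.1 to 24.4 CPM in ctrl. The AAV-Cre group differed in agent and in hours after treatment, which cannot be told apart here.

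The ApoYap mice give another pair of groups with and without the same water, but with human YAP switched on by it, so that the drug and YAP cannot be told apart there. This comparison was added after the values were seen, and shares no library with the one above. ApoYap Dox (n = 3) against ApoYap ctrl (n = 4) called 35.0% of genes higher and 32.0% lower. Of the 16 genes, 11 were called in the same direction and 3, Gm47283, Atxn7l2 and Dusp1, in the opposite one. Arntl was at 4.59, 2.71 and 4.15 CPM in ApoYap Dox and 7.42, 11.8, 8.73 and 7.82 CPM in ApoYap ctrl (−1.22, adjusted p = 0.00013), Tubb2a at 69.2, 68.3 and 45.9 CPM in ApoYap Dox and 115, 131, 117 and 116 CPM in ApoYap ctrl (−0.97, adjusted p = 0.00011), and Hsp90aa1 at 169, 177 and 127 CPM in ApoYap Dox and 286, 299, 311 and 191 CPM in ApoYap ctrl (−0.79, adjusted p = 0.0011). Sik1 did not differ beyond its error there (−0.02, adjusted p = 0.95). These directions depend on scaling: with library totals alone the median log2 fold change of all genes was 0.99, against 0.07 with TMM, 66.4% of all genes were called higher and 12.6% lower, and of the 16 genes 8 were called in the same direction and 5 in the opposite one. Tfrc was then called higher (0.48, adjusted p = 0.024), against −0.44 (adjusted p = 0.0499) with TMM, as was Sik1 (0.89, adjusted p = 0.0035), and Arntl (−0.30), Tubb2a (−0.06) and Hsp90aa1 (0.12) were not called.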

How the data were processed

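Gene counts from 3′ mRNA sequencing (QuantSeq FWD) of sorted hepatocytes were analysed as deposited. The deposited file holds raw counts per gene and library, which the authors made with FastQC, cutadapt and STAR 2.6.1d on GRCm38 (mm10), per the submitters' processing notes. Which tool counted the reads, with which annotation and strand setting, is not given in those sources, so reads of overlapping or antisense genes and of near-identical copies such as tubulin, Mup and Hspa1 genes may be shared. Symbols are those in the table, and coordinates are from GENCODE M21 (GRCm38), in which 12742 of the 12970 tested symbols matched 1 gene.

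All 25 libraries in 7 groups were fitted together with edgeR 4.0.16 (quasi-likelihood, robust, TMM scaling, filterByExpr), with Benjamini-Hochberg adjustment over 12970 genes and a threshold of 0.05. Alternatives used DESeq2 1.42.0, limma 3.58.1 (voom), other scalings, filters, thresholds and libraries. Shares and marker sums, which are no count model, were tested by exact permutation over libraries. The script was checked on simulated counts. Sequences are from RefSeq tables for GRCm38.p6.

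Named genes are those that were called, reached 2 on the scale of average log2 CPM and had groups without overlap, outside predicted and Y-linked genes, up to 12 in each direction by fold change; up to 4 members of each list by p, with list members given as not called; and 37 genes of known liver responses, some of which are not reported here. Members, lists and rules were chosen with earlier results of these data known. Lists come from general knowledge of liver biology and are given as counts and medians without a test. Replicates differed by more than counting noise in every pair (chi-square per degree of freedom 7.69 to 81.6), so each was counted as its own sample.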

Additional observations from a re-analysis of the deposited data

Results flagged for a closer look

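In 192 groups of 4 libraries (Dox or ctrl, for each gene or marker sum given here), 22 had 1 library set far apart from the other 3 by Dixon's test. Its nominal rate of about 1 in 20 is for values not picked beforehand, so the 22 cannot be set against it. Some genes were picked because 1 library stood apart. Where only 1 library of a group had any count, the flag was fixed in advance. No cause of these was tested.

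In the Dox group, library 3 was far above the others for Cish (50.0 CPM, next 10.1), Socs2 (98.2 CPM, next 17.5), Elovl6, a fatty acid elongase gene (116 CPM, next 78.5), and the red blood cell marker sum (21.1 CPM, next 8.08). Library 2 was far above for Creld2 (19.4 CPM, next 13.3) and far below for Sdhd (2.501 CPM, next 46.8). Library 1 held the only count of Gm47283 (0.141 CPM).

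In the ctrl group, library 4 was far above the others for Slc25a25 (161 CPM, next 113), Atxn7l2 (1.58 CPM, next 0.836), Per1 (9.01 CPM, next 1.49), Mt2 (184 CPM, next 52.3) and Hspa1b (63.0 CPM, next 8.24). Slc25a25 was still called without that library, and Atxn7l2 was not. Library 2 was far above for the acute phase genes Saa1 (591 CPM, next 159) and Lcn2 (12.2 CPM, next 3.38), and for Ugt2b38 (69.9 CPM, next 52.8). Library 3 was far above for Gdf15, a stress hormone gene (233 CPM, next 122), and Onecut1 (29.6 CPM, next 6.31), and library 1 far below for Hamp (141 CPM, next 354.5). Single counts of pancreatic genes set apart ctrl 1 for Ctrb1 (0.157 CPM), ctrl 2 for Prss2 (0.119 CPM), ctrl 3 for Cpa1 (0.236 CPM) and ctrl 4 for Pnlip (0.225 CPM), each at 0 in the other 3.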

How the results depend on the processing

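All 16 genes kept their sign under every alternative in which they were tested, and the number called varied. Genes called higher and lower were 52 and 67 with DESeq2, 45 and 54 with voom, 1 and 10 without a filter, 6 and 13 at 10 CPM or more in 3 libraries, 0 and 1 against a fold of 1.5 (glmTreat), 0 and 4 at an adjusted p under 0.01, and 0 and 11 with a log2 fold change of at least 1 in size. Without Dox 1 and 2 they were 26 and 40. RLE scaling and library totals gave 3 and 13, and TMM without the 50 most abundant genes 3 and 12. With 1 library left out, calls ranged from 0 to 9 higher and from 4 to 23 lower. The fit of 8 libraries gave 2 and 15, of which 7 were among the 16. With the replicate number as a block in that fit, 2 and 11 were called, of which 4 were among the 16. Same-numbered libraries correlated at −0.27 to 0.017 in their deviations from the group mean, and the other pairs at −0.16 to 0.29. These correlations cannot show whether the numbers pair the samples.

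Against AAV-Cre, DESeq2 called 218 higher and 261 lower, RLE scaling 98 and 156, library totals 75 and 166, and leaving out 1 library 9 to 146 higher and 45 to 169 lower. Differences of Dox minus ctrl in 3 sums changed sign when 1 library was left out. That of the mitochondrial mRNA share ranged from −0.750 to 0.381 percentage points, and those of log2 marker sums from −0.445 to 0.407 for neutrophils and from −0.0388 to 0.224 for platelets. The causes were not tested. Depth limits the precision of genes near 1 CPM, such as Atxn7l2.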

Other observations

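Genes of amino acid breakdown and the urea cycle, the main route by which hepatocytes dispose of nitrogen, lay slightly above ctrl in Dox. Of 45 measured members 37 had a positive log2 fold change, 5 passed an unadjusted p under 0.05, all higher (5.62% of all genes), none was called by edgeR, DESeq2 or voom, and the median was 0.18, beside 0.0 over all genes. Got1, the cytosolic aspartate aminotransferase gene, had 306, 329, 292 and 281 CPM in Dox libraries 1 to 4 and 178, 155, 197 and 229.7 CPM in ctrl libraries 1 to 4 (0.67, SE 0.22, adjusted p = 0.24). The Dox values lay above all ctrl values. Tat, of the same pathway, had Dox 2 as its lowest library.

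NF-kB and cytokine response genes had 19 of 22 negative log2 fold changes, 6 of them at an unadjusted p under 0.05 (6.28% of all genes), none called by edgeR, DESeq2 or voom, with a median of −0.87. Markers of other cells lay on the same side, with medians of −0.95 for stellate cells (19 of 20 negative), −0.51 for sinusoidal endothelium (22 of 22) and −0.32 for Kupffer cells (20 of 25), and their part in this was not tested. Of 31 genes of the G2 and M phases, when cells divide, 28 were negative with a median of −0.88, 1 passed an unadjusted p under 0.05, and the same tools called none. Among liver genes set by sex and growth hormone, 18 of 23 male-biased genes were negative, with a median of −0.17; edgeR called none, with 2 lower at an unadjusted p under 0.05, DESeq2 called 2 lower and voom 1. Ugt2b38, a glucuronosyltransferase gene, was at 10.998, 23.7, 20.7 and 18.6 CPM in Dox and 50.2, 69.9, 52.8 and 51.8 CPM in ctrl (−1.59, SE 0.36, adjusted p = 0.11). Mup9, one of the major urinary protein genes, whose near-identical copies share reads, was at 23.0, 7.27, 9.72 and 18.3 CPM in Dox and 149.9, 185, 43.2 and 51.3 CPM in ctrl (−2.90, adjusted p = 0.089).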
